A study of Mus musculus with 8 samples.

Results

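Chemokines and their receptors were followed in iWAT (inguinal white adipose tissue, a subcutaneous fat depot) of male mice kept on a high-fat diet (HFD). The members were the protein-coding rows of the authors' table named as CC, CXC, CX3C or XC ligands and as their G protein-coupled receptors, without Xcr1, and they numbered 61 of 54532 genes, 44 of them ligands and 17 receptors. The KLF10AKO group held 4 libraries of mice in which Klf10, a zinc-finger transcription factor, was knocked out in adipocytes, and the WT group held 4 libraries of wild-type mice. All 8 were male and HFD-fed. Not given in the sources used here are the driver of the deletion, the strain and the age. No label ties a library to an animal, so the p-values reflect how far these libraries spread, which may be technical.

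Chemokines are small secreted proteins that draw leukocytes along a gradient by acting on receptors on the cell surface, which signal through Gi proteins to the machinery of cell movement. Homeostatic chemokines are made without an insult and place lymphocytes in lymphoid tissue, inflammatory ones are induced by infection or injury and draw monocytes, granulocytes and effector T cells, and a mixed set does both. In obese fat, macrophages and adipocytes are known sources of inflammatory chemokines such as Ccl2 and Ccl5, while Cxcl12 and Cxcl14 come mainly from stromal cells.

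Levels are FPKM as deposited by the authors (fragments scaled by gene length and library size), and a change is the KLF10AKO minus WT difference of log2(FPKM + 0.5) from limma, which understates the change of low genes. A gene was tested when it averaged at least 0.5 FPKM across both groups, and it was called at an adjusted p under 0.05 (limma, Benjamini-Hochberg over 16012 genes). A value given as ± is an SD over n = 4 libraries.

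Libraries held 15900731 to 17396282 recovered reads in KLF10AKO and 15537863 to 17499132 in WT. Klf10 itself stood at 9.39, 9.68, 9.75 and 9.59 FPKM in KLF10AKO, against 16.7, 18.2, 16.7 and 21.1 FPKM in WT, and fell on the authors' scale (log2 change -0.88, limma adjusted p 8.96e-06), though not when libraries were scaled to adipocyte markers (0.70). The libraries differed far beyond the chemokines, in markers of several cell types and of other tissues, and the labels do not say whether the dissected pieces had the same make-up in both groups. On the authors' scale all 12 adipocyte markers fell, their summed level being 3813 to 4569.5 FPKM in KLF10AKO and 10347 to 11362 FPKM in WT, with no overlap. B cell markers summed to 1042 to 1543 FPKM in KLF10AKO and 2.65 to 3.69 FPKM in WT and rose in 8 of 8, with no marker of that list at 0 in either group. T cell markers summed to 237 to 346 FPKM in KLF10AKO and 3.54 to 4.75 FPKM in WT and rose in 8 of 8. Macrophage markers summed to 218 to 271 FPKM in KLF10AKO and 307 to 349.9 FPKM in WT and fell in 5 of 7. Fibroblast markers summed to 149 to 239 FPKM in KLF10AKO and 537 to 631 FPKM in WT and fell in 7 of 7. The medians of both lists lay above 0 when scaled to adipocyte markers (1.01 and 0.49). These medians, and the Klf10 change of 0.70, still lay below the median of all genes on that scale, 1.62, where 14836 of 16012 genes rose. Muscle markers summed to 3510 to 8171 FPKM in KLF10AKO replicates 1 to 3 but 33.8 FPKM in replicate 4, against 162 to 215 FPKM in WT. All 3 placental trophoblast markers were at 0 in every KLF10AKO library, against sums of 11.9 to 35.2 FPKM in WT. Placental transcripts are not those of male fat, and differences between the groups in what was dissected or carried over cannot be told apart from differences within the fat. The part of these in the chemokine results was not tested, and in bulk tissue fewer cells of a type and less RNA per cell cannot be told apart.

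Of the 61 members, 40 were tested. Of these, 26 rose, 8 fell and 6 did not pass, so that 85.0% were called, close to the 74.3% of all genes tested that were called in either direction. Rises made up 39.4% of all genes tested and falls 34.9%. The median log2 change was 1.71 over the tested members and 0.05 over all genes tested. A rise of at least 2-fold past the threshold was seen in 22 of the 40 members and in 17.6% of all genes tested, and a fall of at least 2-fold in 5 members and in 11.8% of all genes tested. In 33 of the 40 members the groups did not overlap, as in 69.2% of all genes tested. Of the 40, 11 averaged 0.5 FPKM or more in KLF10AKO alone and 0 in WT alone, so the filter itself admitted rises and the counts over tested members are a description. Among the 29 at or above it in both groups, 15 rose, 8 fell and 6 did not pass.

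Of 26 ligands tested, 13 rose, 8 fell and 5 did not pass, with a median log2 change of 0.54. Of 14 receptors tested, 13 rose, 0 fell and 1, Ccr1, did not pass, with a median of 2.35. The receptors that fell also numbered 0 at an unadjusted p under 0.05 in limma, and 0 with voom on recovered reads, but 1 with quantile normalization, where Ccr1 fell (-0.52, limma adjusted p 0.0168). Only 6 receptors reached 0.5 FPKM in both groups, of which 5 rose.

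**Figure D1:**
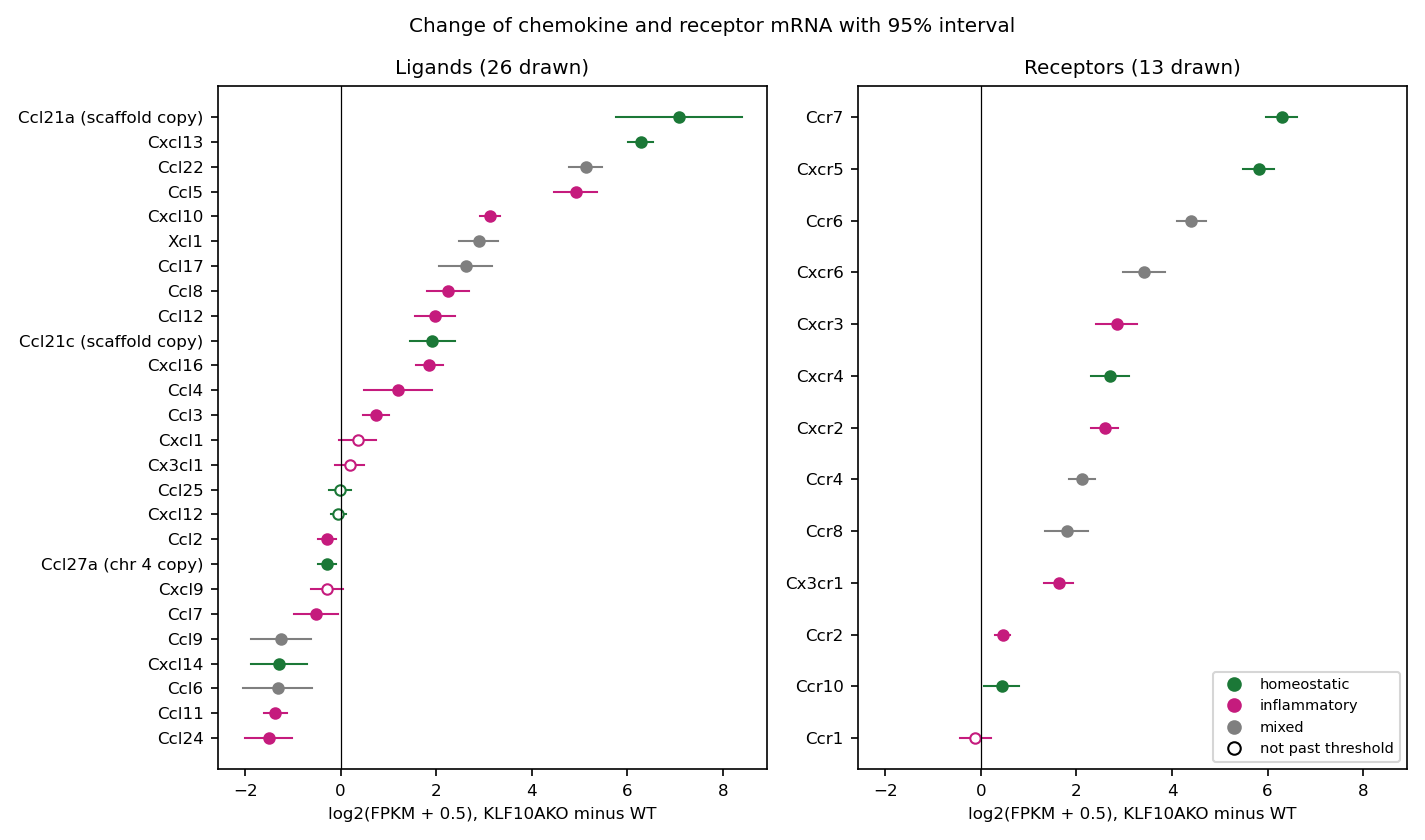
Change in log2(FPKM + 0.5), KLF10AKO minus WT, of the 26 ligands tested (left panel) and 13 of the 14 receptors tested (right panel), with 95% intervals (n = 4 each) and colours for homeostatic, inflammatory and mixed members. Ligands run from -1.50 to 7.08 and receptors from -0.11 to 6.29, with open circles for the 6 members not past the threshold. The points left of 0 move to the right of it when libraries are scaled to adipocyte markers, where the median of all genes is 1.62.

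The members were split by common usage into homeostatic ligands (Cxcl12, Cxcl13, Cxcl14 and the Ccl19, Ccl21, Ccl25, Ccl27 and Ccl28 genes), mixed ligands (Ccl6, Ccl9, Ccl17, Ccl20, Ccl22, Cxcl15, Cxcl17 and Xcl1) and inflammatory ones. On the authors' scale, homeostatic ligands rose in 3 of 7 tested and fell in 2 (median -0.01), inflammatory ligands rose in 7 of 14 and fell in 4 (median 0.54), and mixed ligands rose in 3 of 5 and fell in 2 (median 2.62). Homeostatic receptors rose in 4 of 4 (median 4.26), inflammatory receptors in 5 of 6 (median 1.05) and mixed receptors in 4 of 4 (median 2.76). All the mixed receptors, the homeostatic Ccr7 and Cxcr5 and the inflammatory Cxcr2 and Cx3cr1 averaged under 0.5 FPKM in WT. So did Ccl17 and the tested Ccl21 rows. These members passed the filter only through KLF10AKO, so the class counts and medians are a description and not a contrast of classes. Rescaling to TPM moved the median of all genes by 0.20, quantile normalization moved it by -0.20, and scaling to adipocyte markers moved it by 1.58 and put the changes of all 8 fallen ligands above 0, between 0.07 (Ccl24) and 1.30 (Ccl2), although still below the median of all genes on that scale, 1.62. Of the 26 rises, 0 turned round under these 3 scalings.

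Total levels moved with the counts. FPKM of all receptors summed to 147 to 206 in KLF10AKO libraries, against 12.7 to 14.4 in WT. Homeostatic receptors made up 74.0% to 76.2% of that sum in KLF10AKO and 35.9% to 47.1% in WT. Ligand FPKM summed to 587 to 843 in KLF10AKO and 295 to 339 in WT. The homeostatic ligands took 27.0% to 46.3% of it in KLF10AKO, against 19.6% to 21.7% in WT. Inflammatory ligands took 44.7% to 57.9% in KLF10AKO and 47.6% to 51.8% in WT, with overlap. Mixed ligands took 9.08% to 16.4% in KLF10AKO and 28.6% to 31.2% in WT. A single homeostatic row, Ccl21a on scaffold JH584294.1, held 14.8% of the summed ligand means in KLF10AKO and was at 0 in WT. The leading ligands also changed: Ccl5, Ccl21a, Cxcl13, Ccl8 and Ccl22 had the highest means in KLF10AKO, and Ccl11, Ccl6, Ccl9, Cxcl12 and Cxcl14 in WT. Among the receptors, Ccr7, Cxcr5 and Cxcr4 led in KLF10AKO, while Cxcr4 and Ccr2 led in WT.

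**Figure D2:**
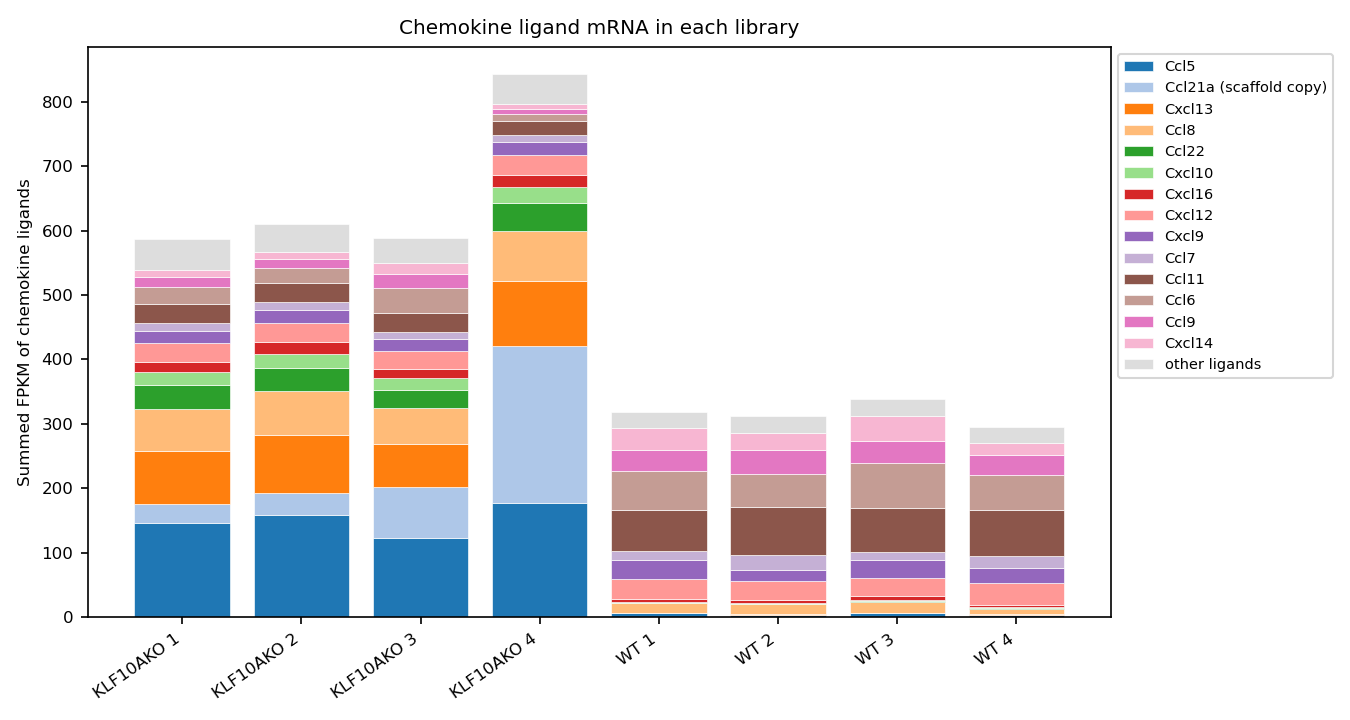
Summed FPKM of chemokine ligands in each library, KLF10AKO on the left and WT on the right, split by ligand. KLF10AKO bars reach 587 to 843 FPKM, with wide Ccl5, Cxcl13 and Ccl8 segments, and WT bars reach 295 to 339 FPKM, with wide Ccl11, Ccl6 and Ccl9 segments; the tallest bar, KLF10AKO 4, holds 244 FPKM of Ccl21a.

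The largest rises were in the homeostatic pairs that organise lymphoid tissue. Ccr7, the receptor that guides naive T cells and mature dendritic cells to lymph nodes, was at 68.0, 75.3, 55.4 and 81.6 FPKM in KLF10AKO, against 0.372, 0.243, 0.404 and 0.585 FPKM in WT. It was thus read in every WT library, 48 reads in all, and the lowest KLF10AKO library was 94.6 times the highest WT library. Its change was 6.29 (95% interval 5.96 to 6.62, limma adjusted p 4.65e-09), a ratio of mean FPKM of 175.

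Ccr7 has Ccl19 and the Ccl21 chemokines as ligands, which lymph node stroma and high endothelial venules make. The Ccl21a row on scaffold JH584294.1 (bases 121048 to 121713, minus strand, mm10) was at 29.8, 34.5, 80.2 and 244 FPKM in KLF10AKO and at 0 in all 4 WT libraries. The KLF10AKO values spread 8.19-fold, with replicate 4 far above the other three, and all exceeded WT. Set against 3 reads spread over all 4 WT libraries, the mean was at least 797-fold higher, and at least 395-fold higher without replicate 4. Other Ccl21 rows held few reads: 93 for Ccl21c on scaffold GL456350.1, at least 25.6-fold higher than WT, 53 for Ccl21a on chromosome 4, and 3 over the remaining copies, all of them in KLF10AKO. The annotated Ccl21a transcript that was compared is 870 bases long, as is the chromosome 4 row. It shares 400 of 402 bases with the Ccl21b transcript, with an identical stretch of 208. The scaffold rows of Ccl21a and Ccl21c were not compared, and which copy the reads came from is not known with certainty. Over all Ccl21 rows 2955 reads fell in KLF10AKO and 0 in WT. Ccl19 on chromosome 4 was under the filter, at 0.426, 0.608, 0.700 and 0.784 FPKM in KLF10AKO and 0 in WT, or 40 reads in KLF10AKO and 0 in WT, at least 11.1-fold higher. An exact two-sided permutation test of its 8 values gave p = 0.0286, the smallest that 4 against 4 libraries allow.

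Cxcr5 and Cxcl13, the pair that gathers B cells into follicles, both rose. Cxcr5 was at 32.4, 35.1, 27.7 and 38.7 FPKM in KLF10AKO, against 0.261, 0.0180, 0.10 and 0.0409 FPKM in WT, and its change was 5.82 (limma adjusted p 5.39e-09). Cxcl13 was at 81.2, 89.3, 66.3 and 100.2 FPKM in KLF10AKO, against 0.524, 0.575, 0.579 and 0.651 FPKM in WT, with a change of 6.28 (limma adjusted p 2.05e-09) and a ratio of means of 145. Both were low in each WT library, without overlap, and both were lowest in replicate 3 and highest in replicate 4 within KLF10AKO. Exons of Cxcr5 overlap those of Bcl9l on the opposite strand, and whether the counting used strand is unknown here. All 3 high endothelial venule markers (Glycam1, Chst4, Madcam1) rose beside these pairs, their summed level being 27.8 to 40.3 FPKM in KLF10AKO and 0.366 to 0.893 FPKM in WT, with Chst4 at 0 in every WT library, and the part of such cells in the rise was not tested.

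Of Cxcr4 and Cxcl12, which hold leukocytes and progenitors in bone marrow and stroma, the receptor rose and the ligand did not pass. Cxcr4 was at 28.4, 31.9, 23.5 and 33.0 FPKM in KLF10AKO, against 4.55, 3.53, 5.38 and 2.94 FPKM in WT, with a change of 2.71 (limma adjusted p 1.26e-06). Cxcl12 was at 29.8, 29.5, 28.2 and 32.1 FPKM in KLF10AKO, against 31.7, 30.0, 28.1 and 34.0 FPKM in WT. These Cxcl12 values overlapped, and the change was -0.05 with a 95% interval of -0.21 to 0.11 (limma adjusted p 0.553). With TPM the change was 0.16, and scaled to adipocyte markers Cxcl12 rose by 1.53 (limma adjusted p 1.36e-06). That rise was below the median of all genes on that scale, 1.62.

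Of the remaining homeostatic members, Cxcl14 and Ccl27a fell on the authors' scale, though not when scaled to adipocyte markers, Ccr10 rose, Ccl25 did not pass and the rest were under the filter. Cxcl14, a chemokine of skin and stromal cells, was at 11.3, 10.4, 17.4 and 8.28 FPKM in KLF10AKO, against 33.1, 26.7, 39.2 and 19.3 FPKM in WT, and fell on this scale (log2 change -1.29, limma adjusted p 0.00152), though not when scaled to adipocyte markers (0.29). WT replicate 4 was the lowest of WT and KLF10AKO replicate 3 the highest of its group, without overlap. Ccr10, a receptor of skin-homing T cells and plasma cells, rose by 0.44 with a limma adjusted p of 0.0363, and lost the call when KLF10AKO replicate 1, 3 or 4 or WT replicate 1 or 3 was left out, with adjusted p of 0.0515 to 0.0840. Its skin ligand Ccl27a on chromosome 4 stood at 1.75, 2.24, 2.13 and 1.84 FPKM in KLF10AKO, against 2.53, 2.61, 2.47 and 2.52 FPKM in WT, and fell by 0.29 (limma adjusted p 0.0117), a call that was lost with TPM (-0.13) and a direction that turned when scaled to adipocyte markers (1.29), and its exons overlap those of Il11ra1. The second Ccr10 ligand, Ccl28 of mucosal epithelium, was under the filter at 0.105 to 0.410 FPKM in KLF10AKO and 0.413 to 0.596 FPKM in WT, without overlap (exact permutation p = 0.0286). Ccl25, the thymic and gut ligand, averaged 0.921 ± 0.0687 FPKM in KLF10AKO and 0.931 ± 0.0830 FPKM in WT and did not pass. Ccl25 passed as a fall with quantile normalization (-0.39, limma adjusted p 0.00764) and as a rise when scaled to adipocyte markers (1.57, limma adjusted p 5.35e-06). The rise was below the median of all genes on that scale, 1.62. Exons of Ccl25 overlap those of Elavl1. The Ccl25 receptor Ccr9 was under the filter at 0.571, 0.750, 0.704 and 0.928 FPKM in KLF10AKO, against 0.0261, 0.0410, 0 and 0.0398 FPKM in WT, without overlap, although its exons overlap those of Slc6a20a and of a pair of non-coding genes.

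Of the Cxcr3 ligands among the members, Cxcl10 rose and Cxcl9 did not pass. Cxcr3 marks effector and memory T cells, and its ligands Cxcl9 and Cxcl10 are classic targets of interferon-gamma, with Cxcl10 also answering type I interferon. Cxcr3 was at 7.68, 7.79, 6.02 and 9.76 FPKM in KLF10AKO, against 1.08, 0.591, 0.616 and 0.393 FPKM in WT (log2 change 2.84, limma adjusted p 1.55e-06). Cxcl10 was at 20.8, 21.7, 17.9 and 24.5 FPKM in KLF10AKO, against 1.96, 1.95, 2.16 and 1.84 FPKM in WT (log2 change 3.13, limma adjusted p 1.45e-08). Cxcl9 was at 19.3, 20.7, 18.5 and 20.0 FPKM in KLF10AKO, against 28.9, 17.6, 29.1 and 22.9 FPKM in WT. The Cxcl10 groups were far apart, while those of Cxcl9 overlapped, with WT replicate 2 below all 4 KLF10AKO libraries (log2 change -0.29, 95% interval -0.63 to 0.04, limma adjusted p 0.102). Without WT replicate 2, Cxcl9 fell, by 0.44 with a limma adjusted p of 0.00343, whereas scaled to adipocyte markers it rose by 1.28 (limma adjusted p 3e-05). That rise was below the median of all genes on that scale, 1.62. Cxcl10 and Cxcl9 lie side by side on chromosome 5, within bases 92321347 to 92348889, and Cxcl10 exons overlap those of Art3 on the opposite strand.

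The promoter windows of this neighbouring pair are shown because one gene rose and the other did not, with that of Cxcl14, which fell, as a further gene with the same repeat. Each runs from 250 bases before to 50 after the annotated start (RefSeq, GRCm38.p6, minus strand, written 5′ to 3′), at chr5:92348840-92349139 for Cxcl10, chr5:92328030-92328329 for Cxcl9 and chr13:56296502-56296801 for Cxcl14, and capitals mark the interferon-response repeat (GAAA, any 2 bases, GAAA).
Cxcl10: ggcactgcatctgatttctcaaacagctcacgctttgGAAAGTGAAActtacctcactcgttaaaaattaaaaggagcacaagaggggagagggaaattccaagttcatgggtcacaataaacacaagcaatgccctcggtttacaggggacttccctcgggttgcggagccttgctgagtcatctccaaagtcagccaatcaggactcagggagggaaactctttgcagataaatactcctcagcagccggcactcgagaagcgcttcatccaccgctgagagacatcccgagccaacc
Cxcl9: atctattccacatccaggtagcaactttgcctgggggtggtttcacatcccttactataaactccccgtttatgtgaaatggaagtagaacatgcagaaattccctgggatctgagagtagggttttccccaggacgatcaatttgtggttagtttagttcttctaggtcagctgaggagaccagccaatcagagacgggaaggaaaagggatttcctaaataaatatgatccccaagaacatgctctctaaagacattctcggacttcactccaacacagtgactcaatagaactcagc
Cxcl14: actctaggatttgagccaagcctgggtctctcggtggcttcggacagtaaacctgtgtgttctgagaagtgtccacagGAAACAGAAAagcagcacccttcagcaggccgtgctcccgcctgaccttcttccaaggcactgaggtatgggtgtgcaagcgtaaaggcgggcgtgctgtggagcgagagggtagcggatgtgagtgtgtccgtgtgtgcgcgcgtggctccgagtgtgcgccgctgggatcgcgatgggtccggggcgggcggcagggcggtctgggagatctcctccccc
Of 54 member symbols looked up, 40 were in the RefSeq table. The others, among them Ccl2, Ccl5, Ccl7, Ccl11, Ccr7 and Cxcr5, had no window and were not searched for any motif. The repeat, searched on both strands, was in 3.44% of 32851 windows, and among members it was found in Cxcl10, Cxcl14 and Ccl19, at 213, 172 and 208 bases before the start. A narrow form of the kappaB letters (GGG, any 2 bases, TTTCC) was in 1.63% of windows and in 6 of the 40 members searched. These were Cxcl1, Cxcl2, Cxcl3, Ccl20, Ccl9 and Ccr3, of which Ccl9 fell, Cxcl1 did not pass and the rest were under the filter. Only this form was searched, so other forms of the kappaB site, in risen members as well, would be missed. The letters of a STAT site (TTC, any 3 bases, GAA) were in 8.30% of windows and in Ccl17, Ccr6 and Cxcl14, and the CACCC-box letters CCACCC, of the kind that zinc-finger factors of the KLF family bind, were in 31.5% of windows and in 13 of the 40 members. In the windows printed, no matches to different motifs overlapped. Matches are letters only.

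Among inflammatory CC ligands, Ccl5, a T cell and NK cell product that acts on Ccr1 and Ccr3, was at 146, 158, 122 and 177 FPKM in KLF10AKO, against 5.86, 3.38, 5.90 and 3.40 FPKM in WT (log2 change 4.91, limma adjusted p 8.53e-08). The lowest KLF10AKO library was 20.7 times the highest WT library. By mean FPKM Ccl5 was the most abundant ligand in KLF10AKO, although in replicate 4 Ccl21a on scaffold JH584294.1 was higher, at 244 FPKM. Ccl3 and Ccl4, the macrophage inflammatory proteins, rose by 0.73 and 1.20 at low levels. Ccl3 averaged 1.46 ± 0.163 FPKM in KLF10AKO and 0.679 ± 0.130 FPKM in WT, and Ccl4 averaged 2.60 ± 0.328 FPKM in KLF10AKO and 0.981 ± 0.783 FPKM in WT.

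The monocyte receptor Ccr2 was at 5.30, 5.73, 5.07 and 5.80 FPKM in KLF10AKO, against 3.89, 3.64, 3.69 and 4.14 FPKM in WT, without overlap (log2 change 0.46, limma adjusted p 0.000247). Its main ligand Ccl2 was at 6.21, 6.48, 5.48 and 7.37 FPKM in KLF10AKO, against 7.77, 8.03, 7.55 and 7.96 FPKM in WT, and fell by 0.28 (limma adjusted p 0.0132), a call that was lost with TPM (-0.09) and a direction that turned when scaled to adipocyte markers (1.30). A second ligand, Ccl7, averaged 10.9 ± 1.12 FPKM in KLF10AKO and 16.4 ± 5.20 FPKM in WT, and fell by 0.51 with overlapping groups (limma adjusted p 0.0411), a call lost in 6 of the 8 fits that left out a library, with adjusted p of 0.0503 to 0.102. The exceptions were the fits without WT replicates 1 and 3, and scaled to adipocyte markers the change was 1.06. Another, Ccl12, averaged 9.83 ± 2.16 FPKM in KLF10AKO and 2.14 ± 0.575 FPKM in WT and rose by 1.97. Its genomic neighbour Ccl8, a ligand of Ccr8 in mice, averaged 67.3 ± 8.94 FPKM in KLF10AKO and 14.1 ± 3.65 FPKM in WT and rose by 2.25.

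The tested eosinophil ligands, Ccl11 and Ccl24, fell on the authors' scale, though not when scaled to adipocyte markers (0.21 and 0.07). Ccl11 (eotaxin) had the highest mean FPKM of the ligands in WT. It was at 29.2, 28.3, 29.8 and 21.8 FPKM in KLF10AKO, against 65.0, 75.4, 69.3 and 72.8 FPKM in WT (log2 change -1.36, limma adjusted p 3.3e-06). Ccl24, a macrophage-made eotaxin, was at 1.75, 1.51, 1.83 and 0.831 FPKM in KLF10AKO, against 4.91, 5.57, 6.43 and 3.47 FPKM in WT (log2 change -1.50, limma adjusted p 0.000214). In both genes the groups did not overlap, and KLF10AKO replicate 4 was the lowest library. Their receptor Ccr3 was under the filter at 0.0173 to 0.0806 FPKM in KLF10AKO and 0 to 0.0624 FPKM in WT, 14 reads in KLF10AKO and 9 in WT, so no difference was detectable at this depth. Of 4 eosinophil markers Siglecf and Epx were near 0 in both groups, Prg2 did not pass, and Il5ra rose.

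Ccl6 and Ccl9, mouse CC ligands of Ccr1 made by macrophages and other myeloid cells, fell as well on this scale, though not when scaled to adipocyte markers (0.26 and 0.32). Ccl6 was at 26.1, 24.3, 39.2 and 11.3 FPKM in KLF10AKO, against 60.2, 50.9, 69.7 and 54.4 FPKM in WT (log2 change -1.32, limma adjusted p 0.00448). Ccl9 was at 16.4, 13.8, 21.4 and 7.13 FPKM in KLF10AKO, against 33.2, 36.8, 33.9 and 30.1 FPKM in WT (log2 change -1.26, limma adjusted p 0.00274). In both, KLF10AKO replicate 3 was the highest and replicate 4 the lowest of its group, and every KLF10AKO library lay below every WT library. Ccr1 averaged 0.810 ± 0.212 FPKM in KLF10AKO and 0.905 ± 0.0804 FPKM in WT and did not pass (95% interval -0.43 to 0.20). It passed as a fall with quantile normalization (-0.52, limma adjusted p 0.0168) and as a rise when scaled to adipocyte markers (1.46, limma adjusted p 6.85e-06). That rise was below the median of all genes on that scale, 1.62.

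On chromosome 11 the CC ligands lie in a pair of clusters, and on the authors' scale neighbours moved in opposite directions, though with scaling to adipocyte markers the falls turned. In the first, at bases 82035571 to 82305690, Ccl2, Ccl7 and Ccl11 fell, Ccl12 and Ccl8 rose and Ccl1 was under the filter. In the second, at bases 83525778 to 83664683, Ccl5, Ccl3 and Ccl4 rose and Ccl9 and Ccl6 fell. On chromosome 8, Ccl22 and Ccl17 rose on either side of Cx3cl1, which did not pass.

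**Figure D3:**
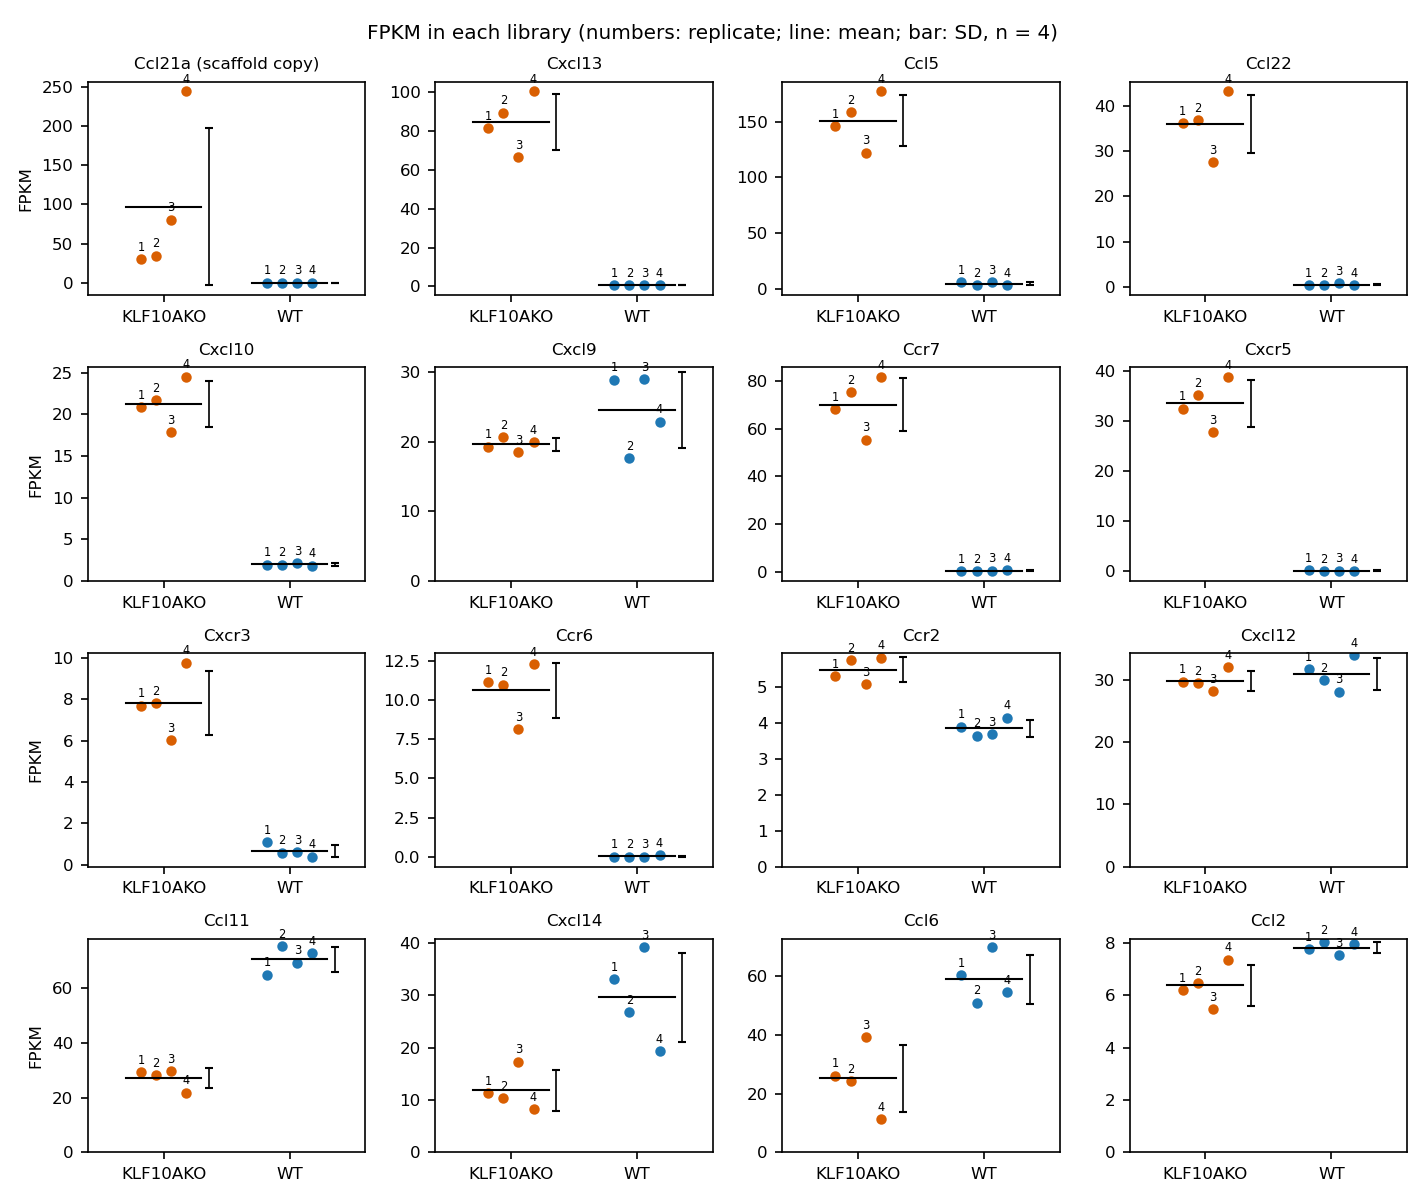
FPKM of 16 members in each library, KLF10AKO left and WT right, with the mean as a line and the SD as a bar (n = 4) and replicate numbers beside the points. Ccr7, Cxcr5, Cxcl13, Ccl5, Ccl22 and Cxcl10 lie apart without overlap, Cxcl12 and Cxcl9 overlap, and Ccl11, Cxcl14, Ccl6 and Ccl2 are lower in KLF10AKO on this scale, though not when scaled to adipocyte markers.

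Of the neutrophil axis, Cxcr2 rose and its tested ligand did not pass. Cxcr2, the receptor that draws neutrophils, was at 3.06, 2.73, 2.59 and 3.48 FPKM in KLF10AKO, against 0.0439, 0.0986, 0.131 and 0.0223 FPKM in WT, without overlap (log2 change 2.59, limma adjusted p 2.32e-07), while its relative Cxcr1 had 24 reads in KLF10AKO and 3 in WT. Cxcl1, a neutrophil attractant, was at 1.58, 1.01, 1.47 and 1.09 FPKM in KLF10AKO, against 0.928, 0.706, 1.28 and 0.690 FPKM in WT, with overlap, and did not pass (log2 change 0.36, 95% interval -0.03 to 0.74, limma adjusted p 0.0831). It passed when scaled to adipocyte markers (1.93, limma adjusted p 1.03e-06), with TPM (0.64), with a replicate block, and without WT replicate 3. Cxcl5, another Cxcr2 ligand, was under the filter with 1 read in KLF10AKO and 68 in WT, at 0 to 0.0283 FPKM in KLF10AKO and 0.322 to 1.32 FPKM in WT, without overlap (exact permutation p = 0.0286). Cxcl2 had 34 reads in KLF10AKO and 30 in WT, and Cxcl3 had 2 in KLF10AKO and 16 in WT. Neutrophil markers summed to 4.06 to 4.71 FPKM in KLF10AKO and 10.8 to 11.6 FPKM in WT, with 1 of 5 rising (Csf3r) and 1 falling (S100a8), and the defining marker Ly6g was near 0 in both groups, with 0 reads in KLF10AKO and 1 in WT.

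Cx3cr1, of monocytes and tissue macrophages, rose, and its membrane-bound ligand Cx3cl1 did not pass. Cx3cr1 was at 2.13, 2.84, 1.82 and 2.52 FPKM in KLF10AKO, against 0.342, 0.494, 0.399 and 0.393 FPKM in WT (log2 change 1.63, limma adjusted p 5.22e-06). Cx3cl1 was at 2.74, 2.39, 2.30 and 2.67 FPKM in KLF10AKO, against 2.67, 1.59, 2.49 and 1.98 FPKM in WT, overlapping, and did not pass (95% interval -0.12 to 0.50), although it passed as a rise with TPM (0.41, limma adjusted p 0.0199) and when scaled to adipocyte markers (1.77, limma adjusted p 2.67e-06). Cxcl16, likewise made with a membrane anchor, was at 15.0, 18.5, 14.5 and 18.3 FPKM in KLF10AKO, against 4.39, 3.96, 5.12 and 3.49 FPKM in WT (log2 change 1.85), and its receptor Cxcr6, of NKT and resident T cells, was at 9.48, 8.13, 8.40 and 10.4 FPKM in KLF10AKO, against 0.277, 0.685, 0.587 and 0.141 FPKM in WT (log2 change 3.42). Exons of Cxcl16 overlap those of Zmynd15.

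Among mixed members, Ccl22, a dendritic cell ligand of Ccr4, was at 36.2, 36.8, 27.6 and 43.2 FPKM in KLF10AKO, against 0.432, 0.491, 0.802 and 0.439 FPKM in WT (log2 change 5.13, limma adjusted p 1.4e-08), and Ccl17, the other Ccr4 ligand, averaged 4.01 ± 0.976 FPKM in KLF10AKO and 0.250 ± 0.230 FPKM in WT. Ccr4, of regulatory and helper T cells, averaged 1.72 ± 0.176 FPKM in KLF10AKO and 0.0151 ± 0.0188 FPKM in WT, with 393 reads in KLF10AKO and 3 in WT. Ccr6, of B cells and Th17 cells, was at 11.1, 11.0, 8.15 and 12.3 FPKM in KLF10AKO, against 0, 0, 0 and 0.0880 FPKM in WT, or 1820 reads in KLF10AKO and 3 in WT, and its one ligand, Ccl20, had 4 reads in KLF10AKO, all in replicate 4, and 0 in WT. Xcl1, a product of T and NK cells, was at 8.17, 7.56, 5.69 and 9.75 FPKM in KLF10AKO, against 0.384, 0.690, 0.892 and 0.521 FPKM in WT (log2 change 2.88, limma adjusted p 1.11e-06). Ccr8 averaged 1.40 ± 0.374 FPKM in KLF10AKO and 0.0427 ± 0.0855 FPKM in WT, with 121 reads in KLF10AKO and 3 in WT.

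On the authors' scale, of the 24 pairs of a receptor with a ligand in which both were tested, both rose in 12 and both fell in 0. As 13 of 14 tested receptors rose and 0 fell, no pair could fall together. Among tested ligands 13 of 26 rose, and rises made up 39.4% of all genes tested. Pairs also share genes, such as Ccl3, Ccl5 and Ccl7, and Ccr7 counts with Ccl21a and with Ccl21c. The pair counts are thus a description. In 3 pairs the receptor rose and the ligand fell (Ccr2 with Ccl2 and Ccl7, Ccr10 with Ccl27a). In 4 the receptor rose and the ligand did not pass (Cxcr2 with Cxcl1, Cxcr3 with Cxcl9, Cxcr4 with Cxcl12, Cx3cr1 with Cx3cl1). The remaining 5 pairs were those of Ccr1.

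**Figure D4:**
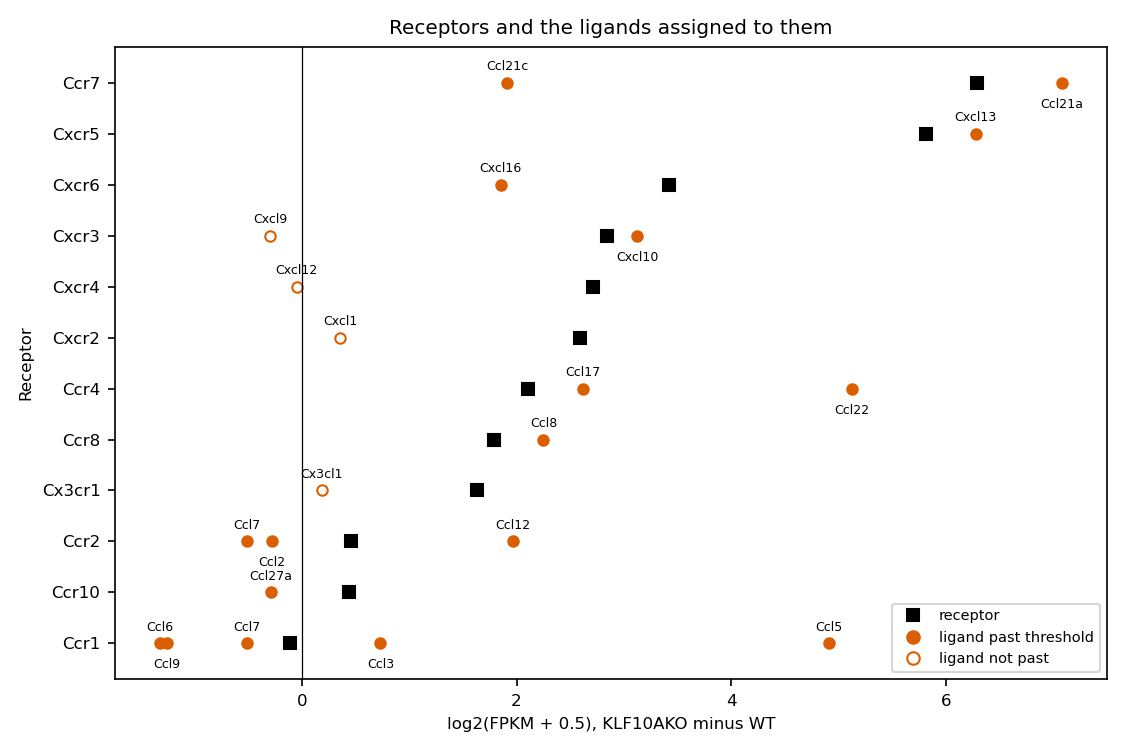
Change in log2(FPKM + 0.5), KLF10AKO minus WT, of 12 receptors (squares) and of the ligands assigned to it (circles, open where not past the threshold), with receptors sorted by their change. Receptor changes run from -0.11 (Ccr1) to 6.29 (Ccr7), and the ligands of Ccr7, Cxcr5 and Ccr4 lie on the same side as the receptor. Ligands left of 0 move above it when scaled to adipocyte markers, where the median of all genes is 1.62.

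The 21 members not tested averaged 0 to 0.416 FPKM over the 8 libraries, the highest being Ccl21a on chromosome 4, while the lowest tested member, Ccr8, averaged 0.719 FPKM. No read fell on 5 of them in any library, namely Ccl26, Cxcl15, Ccl27b, Ccl21b on chromosome 4 and Ccl27a on scaffold JH584294.1. In 5 others, Ccl19 and Ccl21a on chromosome 4, Ccl28, Cxcl5 and Ccr9, the groups did not overlap. The same held for 69.2% of all genes tested, which lie above the filter. Where 4 against 4 libraries do not overlap, the exact permutation p is always 0.0286, and it was not adjusted for the number of members. Ccl1, a ligand of Ccr8, had 16 reads in KLF10AKO and 2 in WT, and Cxcl17, a mucosal chemokine, had 1 read in KLF10AKO and 2 in WT.

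KLF10AKO libraries differed among themselves in a recurring order. Of the 26 risen members, 19 were highest in replicate 4 and 19 were lowest in replicate 3 of the KLF10AKO group. Of the 8 fallen members, 5 were lowest in replicate 4 and 5 highest in replicate 3. How many of all genes tested follow this order was not counted, so it is not shown to be particular to the members. Summed B cell markers were likewise highest in replicate 4 and lowest in replicate 3, at 1253, 1323, 1042 and 1543 FPKM in KLF10AKO replicates 1 to 4, and T cell markers at 283, 303, 237 and 346 FPKM, while fibroblast markers ran the other way, at 192, 182, 239 and 149 FPKM. Summed adipocyte, macrophage and muscle markers were also highest in replicate 3, at 4569.5, 271 and 8171 FPKM. They were lowest in replicate 4, at 3813, 218 and 33.8 FPKM. The part of these cells in the order was not tested. With replicate 4, the library with the lowest muscle markers, as the sole KLF10AKO library and assumed to vary like WT, 23 members rose and 6 fell.

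**Figure D5:**
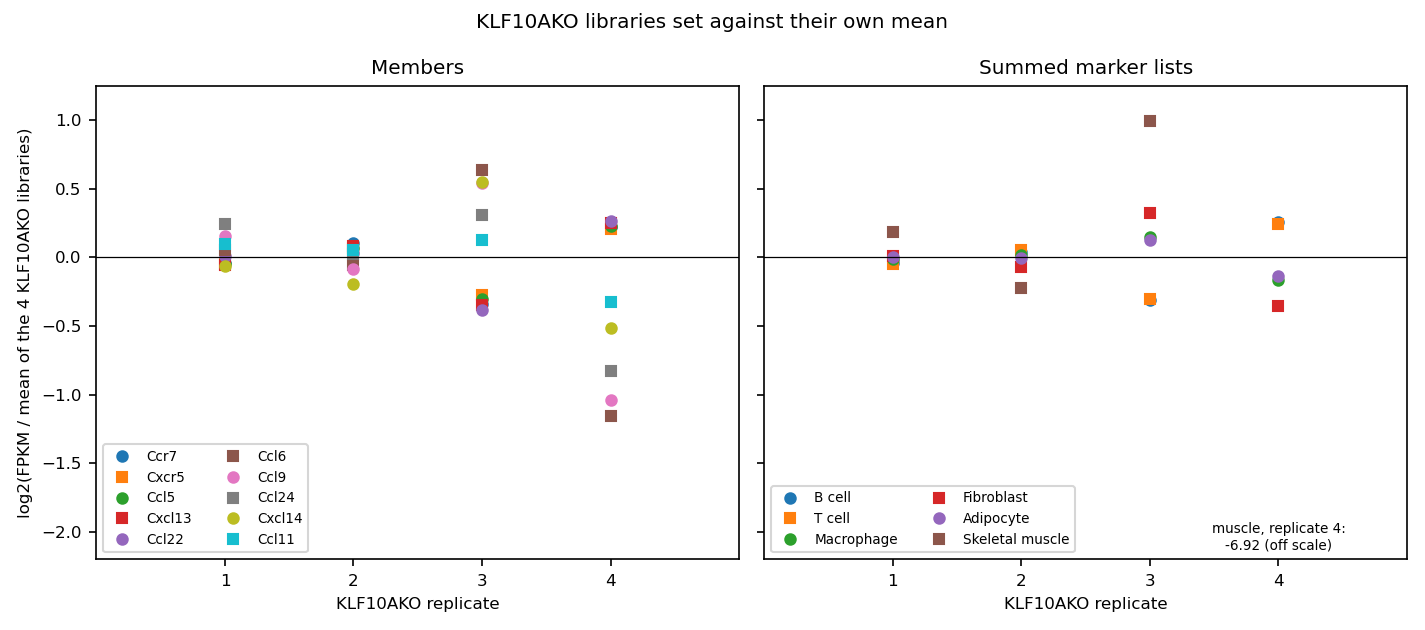
Log2 ratio of each KLF10AKO library's FPKM to the mean of the 4 KLF10AKO libraries, for 10 members (left panel) and 6 summed marker lists (right panel). Ccr7, Cxcr5, Ccl5, Cxcl13 and Ccl22 are lowest in replicate 3 and highest in replicate 4, as are B cell and T cell markers, while Ccl6, Ccl9, Cxcl14 and Ccl24 run the other way; muscle in replicate 4 lies off the scale at -6.92.

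The other genes of the pathway formed a list of 39, of which 38 were tested. On the authors' scale 20 rose, 12 fell and 6 did not pass, with a median log2 change of 0.44. Of this list 84.2% were called, close to the 74.3% of all genes tested. Of all genes tested 39.4% rose and 34.9% fell, so the counts below are a description. Effectors of migration rose in 9 of 12 and fell in 2, among them Rac2, the Rac GTPase of blood cells (135 ± 24.8 FPKM in KLF10AKO and 4.50 ± 0.681 FPKM in WT, log2 change 4.75), and Plcb2, a phospholipase of leukocytes (11.4 ± 1.46 FPKM in KLF10AKO and 0.382 ± 0.0399 FPKM in WT, log2 change 3.75). Desensitising kinases, arrestins and RGS proteins rose in 7 of 9 and fell in 2. The 7 atypical receptors and ligands outside the rule held 6 tested genes, of which 0 rose and 5 fell (although their median was above 0, at 0.53, when scaled to adipocyte markers), including Pf4, the platelet chemokine (19.3 ± 5.65 FPKM in KLF10AKO and 60.3 ± 8.30 FPKM in WT, log2 change -1.65), while Ccrl2 did not pass. Rises among them numbered 0 at an unadjusted p under 0.05 and 0 with voom. G proteins rose in 2 of 5 and fell in 1. Genes that process ligands and receptors rose in 2 of 6, Dpp4 among them (log2 change 2.98), and fell in 2. Of the latter, Mmp2, which cleaves chemokines such as Cxcl12, averaged 15.1 ± 2.27 FPKM in KLF10AKO and 53.6 ± 4.88 FPKM in WT (log2 change -1.80). Scaled to adipocyte markers, the median of the whole list was 2.02 and that of all genes tested was 1.62. The changes of Pf4 and Mmp2 stayed below 0 on that scale, at -0.08 and -0.23.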

How the data were processed

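Messenger RNA of iWAT was sequenced in 8 libraries, 4 of KLF10AKO and 4 of WT mice, from poly(A)-selected RNA primed with random hexamers, per the labels' protocols. The submitters' processing notes name the mm10 build and the tools edgeR 3.22.5, featureCounts 1.5.0-p3 and HISAT2 2.0.5, without their roles, and whether strand was used is unknown here. The authors deposited FPKM per gene with gene lengths. FPKM times length gave whole reads within 0.01 for 100% of values. Their total was 0.901 to 0.939 of the size implied by the FPKM in KLF10AKO and 1.05 to 1.09 of it in WT, a sign that the authors scaled sizes between samples. Depth sets the precision of low members: floors of 3 reads over a group cover counting error only, since the reads carry no molecular identifiers.

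The comparison used limma 3.58.1 in R 4.3.3 on log2(FPKM + 0.5) of genes with a mean FPKM of at least 0.5 (eBayes with trend, no covariate, two-sided, Benjamini-Hochberg threshold 0.05), and exact two-sided permutation tests of single members under that filter. The procedure was tested on simulated data. Members, classes, ligand-receptor pairs, pathway genes and cell markers were chosen with earlier results of these data known. Values in every library are given for up to 12 members with the largest rise and 8 with the largest fall whose groups did not overlap, and for the pairs Cxcl12 Cxcr4, Cxcl13 Cxcr5, Ccl19 Ccl21a Ccr7, Cxcl9 Cxcl10 Cxcr3, Ccl2 Ccr2, Ccl11 Ccr3, Cx3cl1 Cx3cr1, Cxcl16 Cxcr6 and Cxcl1 Cxcr2 and for Ccl5 and Cxcl14. One member that these rules also name is counted but not reported here. Only 7 fallen members met the rule for falls. Of the pathway list, the 2 largest changes in each direction are given. All 61 members were found in GENCODE M21 with the same coordinates, and exons of 8 overlap another gene, 6 of them a protein-coding one. Replicates differed beyond counting noise in each of the 12 pairs of libraries within a group (mean squared z 4.59 to 82.6). Alternatives were TPM, quantile normalization and scaling to adipocyte markers, pseudocounts of 1 and 0.1, a mean FPKM of at least 2 or no filter, eBayes without trend, voom with limma on the whole reads, replicate number as a block, leaving out each library, and KLF10AKO replicate 4 as the lone library of its group, assumed to vary like WT.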

Additional observations from a re-analysis of the deposited data

Results flagged for a closer look

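In 5 of 80 sets of 4 libraries, 1 library lay far from the other three by Dixon's 95% criterion, about the 1 in 20 that chance gives. Ccr10 was at 0.977 FPKM in KLF10AKO replicate 2, against 1.34 to 1.38 FPKM in the other KLF10AKO libraries. In WT, Ccl22 was at 0.802 FPKM in replicate 3, against 0.432 to 0.491 FPKM in the others, and Ccl25 was at 0.808 FPKM in replicate 2, against 0.962 to 0.988 FPKM. Ccr6 was read in WT replicate 4 alone, at 0.0880 FPKM, and Ccr8 in WT replicate 1 alone, at 0.171 FPKM, each from 3 reads.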

How the results depend on the processing

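The count of 26 risen and 8 fallen members held within 1.5 times under pseudocounts of 1 and 0.1, no filter, quantile normalization, eBayes without trend, voom and KLF10AKO replicate 4 alone. It moved in 3 cases: to 17 risen with a minimum mean FPKM of 2, where 28 members were tested, to 5 fallen with TPM, and to 0 fallen with scaling to adipocyte markers. Leaving out each library gave 25 to 26 risen and 7 to 8 fallen members and 11298 to 11862 genes. TPM turned Cxcl12 to 0.16, Ccl25 to 0.16 and Ccr1 to 0.0153, and quantile normalization turned Cx3cl1 to -0.10. Scaling to adipocyte markers turned Ccl11 to 0.21, Ccl6 to 0.26, Ccl9 to 0.32, Cxcl14 to 0.29, Ccl24 to 0.0746, Ccl7 to 1.06, Ccl2 to 1.30, Ccl27a to 1.29, Cxcl12 to 1.53, Cxcl9 to 1.28, Ccl25 to 1.57 and Ccr1 to 1.46. KLF10AKO replicate 4 alone turned Cxcl12 to 0.0552 and Ccl25 to 0.0670. Ccl25, near 0, ran from -0.0528 to 0.0187 when libraries were left out. Ccl7 and Ccr10 lost their calls without the filter, Ccr10 also with voom and quantile normalization, Ccl7, Ccl2 and Ccl27a with TPM, and Ccr10, Ccl7, Ccl2 and Ccl4 with KLF10AKO replicate 4 alone. Calls were gained as falls by Ccl25 (-0.39) and Ccr1 (-0.52) with quantile normalization, which gave 24 risen and 10 fallen members, and as rises by Cx3cl1 (0.41) and Cxcl1 (0.64) with TPM. Scaling to adipocyte markers gave 36 risen members, with Cxcl1 at 1.93 and Cx3cl1 at 1.77. On that scale 14836 of 16012 genes tested rose, so this count is not particular to the members. The changes that it turned all lay below the median of all genes on that scale, 1.62. The cause was not tested. Without the filter, 30 members rose and 9 fell; depth limits members under 0.5 FPKM.

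With a replicate block, 26 members rose, 8 fell and 11726 genes passed. Cxcl1 gained the call and Ccr10 lost it. Deviations of same-numbered libraries correlated at 0.003 to 0.031, all under 0.1. Although 3 of 4 KLF10AKO libraries correlated best with their own number, correlations this near 0 cannot show whether the samples were paired.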
